A study of Mus musculus with 15 samples.

Results

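*Gpnmb* was examined across 5 derived lines of the mouse mammary tumor line 6DT1, through the open chromatin regions that lie over the gene. Members were the regions of either deposited table of ATAC-seq counts that overlap chr6:49012000-49036500 (mm39), the interval given for *Gpnmb*. There were 3 such regions of the 44598 in the table made for the knockdown lines (the KD table) and 2 of the 38036 in the table made for the overexpression line (the OE table). The locus was chosen by its counts in these same 15 libraries, so its levels are given as a description. Its regions were part of the fits over all regions, and their calls in every comparison are printed only beside the share of all regions called, with nothing read from them.

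ATAC-seq marks DNA that a transposase can reach, and each library gives a count of reads per region. The 15 libraries came from monolayer cultures, with 3 each from 5 lines. The EV line carried an empty vector and the OE line a *Smarcd1* overexpression vector, and both were made by viral transduction with blasticidin selection. The paper describes the same viral packaging for cDNA and shRNA constructs. The Scr line carried a scrambled shRNA, and KD4 and KD6 carried shRNAs against *Smarcd1*, a subunit of SWI/SNF chromatin remodelling complexes, all from lentivirus under puromycin selection. Vector, antibiotic and derivation of the lines therefore change together between EV and OE on one side and Scr, KD4 and KD6 on the other, and these cannot be told apart. The sources do not say that a line was derived more than once, so the libraries of a line measure the spread within 1 derived population, which may be technical. Total counts in regions ran from 16176521 to 23703741 per library in the KD table and from 22668624 to 31225937 in the OE table. The labelled cell type was not checked against marker genes, because no annotation of mm39 was used here to place regions at genes.

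*Gpnmb* encodes glycoprotein non-metastatic melanoma protein B, a type I transmembrane glycoprotein that is found in melanosomes, lysosomes and at the cell surface. Its extracellular part can be shed by the protease ADAM10. Transcription factors of the MITF and TFE family drive the gene in melanocytes, macrophages and osteoclasts, and the protein has been followed as a marker and antibody target in breast cancer. An open region over a gene can be a promoter, an enhancer or another bound element, and its accessibility is not a measure of the gene's RNA.

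The promoter of *Gpnmb* is shown because the words searched for in it are those that factors of the MITF family (CACGTG and CATGTG) and AP-1 factors (TGANTCA) are known to bind. The sequence is from RefSeq on build GRCm38.p6, chromosome 6, plus strand, and runs from 250 bases before to 20 bases after the annotated start, with the match in capitals.
Gpnmb promoter: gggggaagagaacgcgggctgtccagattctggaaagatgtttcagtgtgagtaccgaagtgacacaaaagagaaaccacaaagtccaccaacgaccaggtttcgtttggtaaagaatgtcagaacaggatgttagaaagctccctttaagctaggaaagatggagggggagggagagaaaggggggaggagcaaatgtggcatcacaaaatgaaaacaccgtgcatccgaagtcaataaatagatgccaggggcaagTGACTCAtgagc

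On both strands, this window held no CACGTG, no CATGTG and 1 match to TGANTCA, which is TGACTCA and begins 9 bases into the transcript. The same windows with 50 bases after the start, taken over 32851 RefSeq promoters, held CACGTG in 7.15%, CATGTG in 14.2% and TGANTCA in 7.81%. RefSeq places *Svs1* before *Gpnmb* on the chromosome and *Malsu1*, *Igf2bp3* and *Tra2a* after it. Of the neighbours with a promoter entry, *Igf2bp3*, which encodes an mRNA-binding protein, held 2 copies of CACGTG. *Svs1*, a seminal vesicle secretory protein gene, held 1 TGACTCA, and *Tra2a*, which encodes a splicing factor, held none of the 3 words. A match of letters is not a bound site. The accessible regions of the tables are on mm39 and no sequence of that build was used, so the sequences of the regions themselves are not printed.

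Of the 3 regions of the KD table, the first, at chr6:49024678-49025006, is 329 bases long and begins 12.7 kb into the interval. The second, at chr6:49028773-49028937, is 165 bases long, and the third, at chr6:49033116-49033642, is 527 bases long. The RefSeq gene model spans 21.7 kb on GRCm38.p6 and the interval spans 24.5 kb. If the span is the same on mm39, at most 2.83 kb of the interval lies outside the gene and all 3 regions lie in the gene body. Whether they fall in exons or introns was not determined. The OE table held narrower calls of the first region, at chr6:49024769-49024964, and of the third, at chr6:49033263-49033458, each 196 bases long, and held no region at the second. The same 15 libraries were counted over both tables, so the tables are not independent measurements.

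The first region was the most accessible of the 3 in every line. Levels are CPM, the reads of a region as a part of its library's total, scaled by TMM factors over the 15 libraries of a table. Its CPM was 68.6, 121 and 115 in EV libraries 1, 2 and 3. In OE it was 61.1, 108 and 88.3. All 6 of these libraries lay far above the other 9. In Scr the level was 5.63, 8.54 and 3.68 CPM. KD4 had 5.35, 10.9 and 5.23 CPM. KD6 had 14.7, 9.94 and 9.46 CPM. EV and OE overlapped, Scr and KD4 overlapped, and KD6 lay above all Scr libraries but overlapped KD4. In the narrower call of the OE table KD6 overlapped Scr as well, at 3.82 to 6.86 CPM against 1.29 to 4.40 CPM. The lowest EV or OE library was 4.16 times the highest Scr or knockdown library. As deposited counts, EV and OE libraries held 1185 to 2703 reads in this region and the other 9 libraries 69 to 317.

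The second region showed the same order at a lower level. Its mean level was 13.9 ± 1.15 CPM in EV and 12.8 ± 4.45 CPM in OE (SD, n = 3 each). The means were 1.20 ± 0.213 CPM in Scr, 1.26 ± 0.598 CPM in KD4 and 1.59 ± 0.433 CPM in KD6 (SD, n = 3 each). Here all of Scr, KD4 and KD6 overlapped. The 9 libraries of these lines held only 15 to 42 reads each in this region, so differences among them were not resolved at this depth.

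The third region had 23.2 ± 7.54 CPM in EV and 22.4 ± 4.60 CPM in OE (SD, n = 3 each). It had 1.55 ± 0.613 CPM in Scr, 1.83 ± 0.676 CPM in KD4 and 3.10 ± 0.402 CPM in KD6. KD6 lay above all libraries of both Scr and KD4 there, on 52 to 73 reads per library. In the narrower call of the OE table KD6 overlapped both Scr and KD4, so this separation was not seen in both tables. The share of all regions with such a separation was not counted. In the KD table the lowest EV or OE library was 4.31 times the highest of the other lines at the third region.

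**Figure D1:**
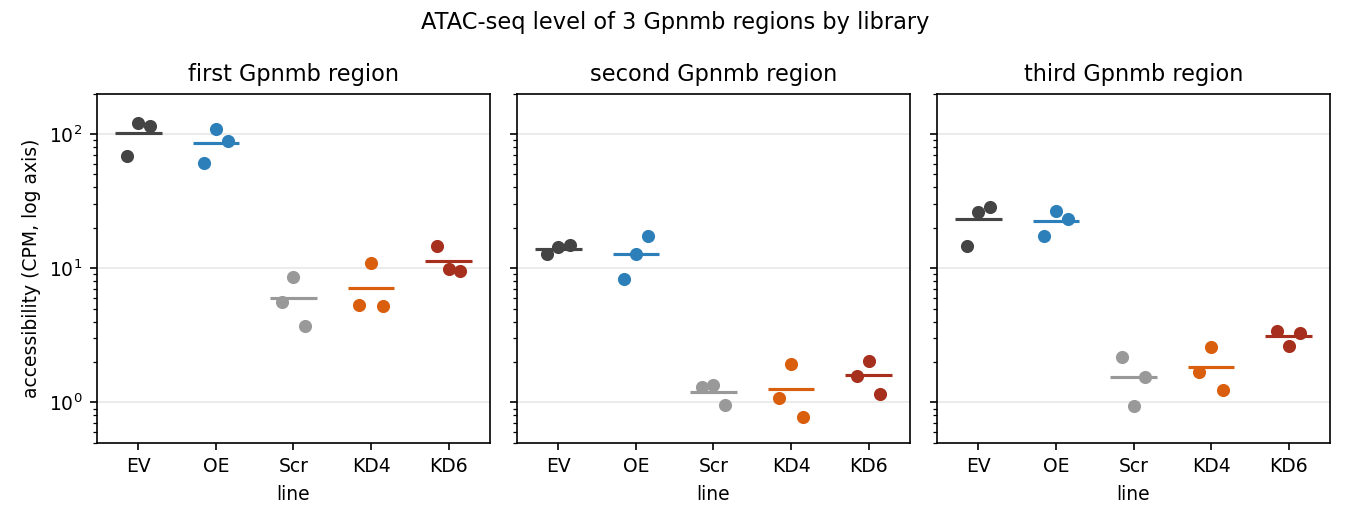
Accessibility of the 3 *Gpnmb* regions of the KD table in each library, in CPM on a log axis, with the lines along the x axis, points for the 3 libraries of each line and a bar at their mean. In each region the 6 EV and OE libraries lie above the 9 Scr, KD4 and KD6 libraries, by at least 4.12 times from the lowest to the highest.

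Summed over the 3 regions, the order of the lines was EV, OE, KD6, KD4 and Scr. The sum was 138 ± 37.0 CPM in EV, with 95.8, 161 and 158 CPM in libraries 1, 2 and 3. In OE it was 121 ± 31.0 CPM, with 86.9, 147 and 129 CPM, and the ranges of EV and OE overlapped. In KD6 it was 16.0 ± 3.12 CPM, with 19.6, 14.6 and 13.9 CPM. In KD4 it was 10.3 ± 4.49 CPM, with 8.11, 15.4 and 7.25 CPM, which overlapped both of its neighbours in the order. In Scr it was 8.71 ± 2.34 CPM, with 9.09, 10.8 and 6.19 CPM (SD, n = 3 for each line). The break in this order lay between OE and KD6, where the means differed 7.54-fold and no library overlapped.

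All 3 regions had lower levels in Scr, KD4 and KD6, and their shares of the summed counts were as follows. The first region took 73.0% ± 1.70 of the summed counts in EV, 70.7% ± 2.47 in OE, 66.7% ± 10.6 in Scr, 69.6% ± 3.25 in KD4 and 70.3% ± 3.87 in KD6 (SD, n = 3 each). The second region took 10.5% ± 2.37 in EV and 14.1% ± 1.52 in Scr, and its fold change between these lines was the smallest of the 3. The shares of the third region were 16.5% ± 1.46 in EV and 19.2% ± 9.11 in Scr. Per kilobase, the mean level in EV was 308 CPM at the first region, 84.5 CPM at the second and 43.9 CPM at the third. In Scr it was 18.1, 7.30 and 2.94 CPM per kilobase, in the same order. Across the 15 libraries, Pearson's r between the log2 CPM of the regions ran from 0.967 to 0.981, with EV and OE in one cluster of points and the other lines in a second. For deviations from the line means it ran from 0.423 to 0.693. The points share their libraries and their scaling factors, so these values are descriptions.

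The 2 control lines differed more at *Gpnmb* than at any other region tested in the KD table. The counts of these libraries chose the locus, so its rank and calls here are a description and not a test. The edgeR fit gave log2 fold changes, Scr minus EV, of -4.07 ± 0.25, -3.52 ± 0.21 and -3.91 ± 0.28 (SE) at the first, the second and the third region. These were the 3 largest of 43819 regions tested, whatever their direction, and the only 3 beyond a log2 fold change of 3. Just inside that order stood the second region at -3.52, and just outside stood a region at chr9:37329811-37329997 at -2.80. In the opposite direction the furthest was chr9:20681364-20681517, at 2.67. The median over all regions tested was 0.02. All 3 regions were called lower in Scr, where 2.2% of all regions were called lower and 4.38% in either direction. In the OE table both regions were called lower, with log2 fold changes of -4.18 and -3.92, the 2 largest of 37671. There 2.93% of all regions were called lower and 5.34% in either direction. The OE table counts the same libraries, so it adds no independent support.

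**Figure D2:**
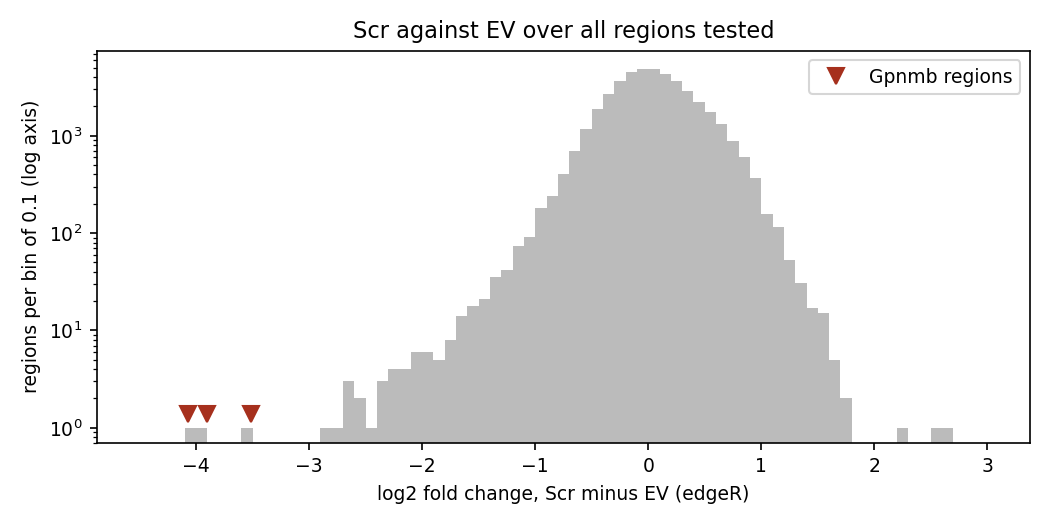
Number of regions of the KD table per 0.1 of log2 fold change (x axis, Scr minus EV, edgeR fit), on a log axis of counts, with triangles at the 3 *Gpnmb* regions. The triangles stand at -4.07, -3.91 and -3.52, apart from all other regions, of which the lowest is at -2.80 and the highest at 2.67.

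The split of the lines seen at *Gpnmb* had few parallels of this size in the same direction. In the KD table all 6 EV and OE libraries lay above all 9 Scr, KD4 and KD6 libraries at 370 regions (0.830%), and below all of them at 441 (0.989%). Only the 3 *Gpnmb* regions had a lowest EV or OE library over 2 times the highest of the other lines. In the OE table only the 2 *Gpnmb* regions did. A cut of 2 times was not applied to the regions split the other way. These counts are descriptions, since these values chose the locus.

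*Smarcd1* overexpression was compared with its own vector control in the OE table. The level of the first region there was 30.8, 59.9 and 56.6 CPM in EV and 27.7, 49.5 and 38.8 CPM in OE. That of the third was 3.40, 10.1 and 12.1 CPM in EV and 6.93, 11.3 and 7.77 CPM in OE. At both regions the ranges overlapped, and library 1 was the lowest of its line in EV and in OE. The fitted log2 fold changes, OE minus EV, were -0.33 ± 0.21 and 0.03 ± 0.29 (SE), and 0 of 2 regions were called, where 0.0106% of all regions were. The difference of the mean sums was -0.28 on the log2 scale.

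*Smarcd1* knockdown was compared with Scr in the KD table. Both knockdown lines together, each line weighted equally, gave log2 fold changes against Scr of 0.60 ± 0.27, 0.24 ± 0.31 and 0.64 ± 0.28 (SE) at the first, the second and the third region, and 0 of 3 were called (0.271% of all regions). KD6 alone gave 0.93 ± 0.30, 0.40 ± 0.34 and 1.01 ± 0.31 (SE), with 0 of 3 called (0.149% of all regions). KD4 alone gave 0.28 ± 0.30, 0.08 ± 0.35 and 0.27 ± 0.32 (SE), with 0 of 3 called (0.576% of all regions). KD6 against KD4 gave 0.66 ± 0.29, 0.32 ± 0.34 and 0.74 ± 0.30 (SE), again with 0 of 3 called (0.224% of all regions). The comparisons share the Scr, KD4 and KD6 libraries. On the summed level, the mean of KD6 was 0.88 above that of Scr and the mean of KD4 0.24 above it, on the log2 scale. The KD4 value turned to -0.18 without KD4 library 2, whose sum of 15.4 CPM lay within the range of KD6.

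The loci on both sides of *Gpnmb* were then followed, with the same libraries. No region of either table lay in the 200 kb before the interval. The nearest one before it ended 414 kb away in the KD table and 436 kb away in the OE table. After the interval the KD table held 18 regions within 200 kb, in 2 blocks. The near block held 9 regions from chr6:49052785 to 49076368, which begin 16.3 kb after the interval. The far block held 9 regions from chr6:49220900 to 49236388, which begin 184 kb after it. The OE table held 14, of which 5 were in the near block. These regions were not used to choose the locus, so they were tested, with p-values adjusted over all regions of a table. They could not be assigned to *Malsu1*, *Igf2bp3* or *Tra2a* without an annotation of mm39.

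The summed level of the neighbours was nearly the same in Scr and EV, while that of *Gpnmb* differed 15.9-fold. The 18 regions summed to 402, 343 and 384 CPM in EV libraries 1, 2 and 3, with a mean of 376 ± 30.0 CPM. In Scr libraries 1, 2 and 3 they summed to 402, 355 and 369 CPM. The mean in Scr was 375 ± 23.9 CPM (SD, n = 3 each). The mean log2 sums differed by -0.0022 between Scr and EV, with the libraries overlapping (two-sided exact permutation p = 1, smallest possible 0.1, adjusted p = 1 over 6 comparisons). The sum rests largely on 1 region, at chr6:49220900-49221553, with 193 ± 33.8 CPM in EV and 143 ± 12.5 CPM in Scr. Over the 9 neighbours within 100 kb, a window added for sums after seeing the data, the mean log2 sum was 0.20 higher in Scr, with the libraries overlapping (two-sided exact permutation p = 0.4, not adjusted). EV library 1 had the lowest sum there, at 20.8 CPM. EV libraries 2 and 3 had 28.7 and 28.9 CPM, and Scr had 25.1 to 34.9 CPM. Of 17 neighbours that passed the filter on low counts, 0 were called by edgeR at a false discovery rate (FDR) of 0.05, where 4.38% of all regions were. DESeq2 called 0 as well, and 8 had an unadjusted edgeR p under 0.05. The share of all regions under that p was not counted, here or in the other comparisons and windows. Such counts therefore have no background beside them.

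Single neighbours differed by small amounts, and most had higher values in Scr. Of the 17, 14 had a log2 fold change above 0 and 3 below 0, with a median of 0.38 and a range from -0.42 to 0.70, against a median of 0.02 over all regions tested and 0.05 over chromosome 6. The smallest adjusted p was 0.0581 (edgeR), at chr6:49232079-49232422, with 18.5, 20.4 and 30.1 CPM in EV and 37.5, 25.8 and 43.5 CPM in Scr. The ranges overlapped, and the log2 fold change was 0.64 ± 0.19 (SE). The most accessible neighbour, at chr6:49220900-49221553, went the other way. It had 232, 173 and 175 CPM in EV and 144, 154 and 130 CPM in Scr, with no overlap, and a log2 fold change of -0.42 ± 0.15 (SE, edgeR FDR 0.108). In the OE table, 1 of 14 neighbours was called, a share not below the 5.34% called over all regions. It lies at chr6:49223213-49223404, with 1.52, 1.86 and 1.92 CPM in EV and 3.58, 3.27 and 3.20 CPM in Scr. All Scr libraries lay above all EV libraries, and the log2 fold change was 0.91 ± 0.23 (SE, edgeR FDR 0.0298), which is the opposite direction to *Gpnmb*. Its narrower call in the KD table, at chr6:49223215-49223377, had a log2 fold change of 0.70 ± 0.25 (SE) and did not pass (edgeR FDR 0.105).

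**Figure D3:**
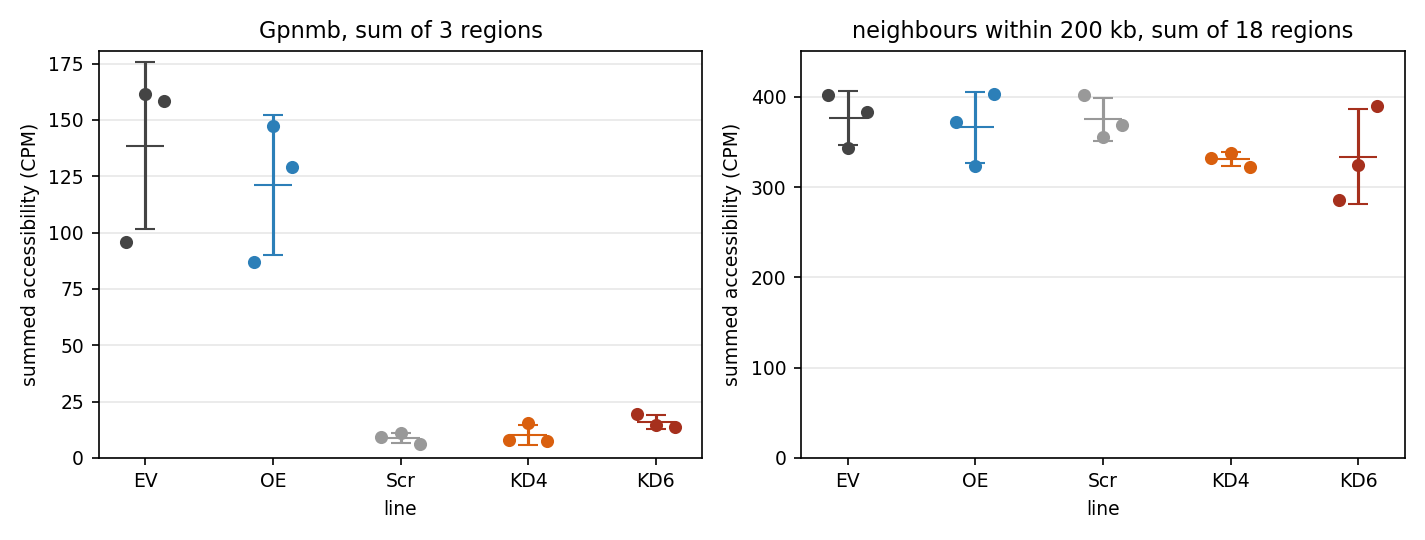
Summed accessibility in CPM by line, for the 3 *Gpnmb* regions (left) and the 18 neighbours within 200 kb (right) of the KD table, with points for libraries and bars for the mean ± SD of 3 libraries, both axes from 0. The mean *Gpnmb* sum is 121 CPM in OE and 16.0 CPM in KD6, while all 15 neighbour sums lie between 286 and 403 CPM.

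Neither *Smarcd1* knockdown nor overexpression gave a called neighbour, but few regions were called anywhere, so 0 calls say little about the neighbours. Of all regions, edgeR called 0.271% for both knockdown lines against Scr, 0.576% for KD4 and 0.149% for KD6. The shares were 0.224% for KD6 against KD4 and 0.0106% for OE against EV. For both knockdown lines together against Scr, 0 of 18 were called by edgeR and by DESeq2, with 2 at an unadjusted edgeR p under 0.05, and the log2 fold changes ran from -0.57 to 0.16 with a median of -0.13. The 18 regions summed to a mean of 332 CPM in the 6 knockdown libraries and 375 CPM in the 3 Scr libraries. The difference was -0.18 on the log2 scale (two-sided exact permutation p = 0.107, adjusted p = 0.321). This test pools the 6 libraries of KD4 and KD6, and the libraries of each line may come from 1 derived population. Its p therefore measures spread between libraries, not between independent knockdowns. *Gpnmb* itself had positive fold changes in both knockdown lines together against Scr. In KD4 alone the summed level was 331 ± 7.55 CPM and lay below all Scr libraries (difference -0.18, exact permutation p = 0.1, the smallest possible, adjusted p = 0.321). In KD6 it was 334 ± 52.8 CPM and overlapped Scr (exact permutation p = 0.3, adjusted p = 0.6). KD4 and KD6 against Scr and against each other each had 0 of 18 called by edgeR and by DESeq2, with 1 at an unadjusted edgeR p under 0.05 in each of the 3 comparisons. KD6 minus KD4 was 0.00012 on the log2 scale of the sum (exact permutation p = 1, adjusted p = 1).

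For OE against EV, 0 of 14 neighbours were called by edgeR and by DESeq2, with 2 at an unadjusted edgeR p under 0.05. Of all regions, edgeR called 0.0106%. The log2 fold changes were above 0 at 11 of 14 and ran from -0.36 to 0.53, with a median of 0.12, against 0.02 over all regions tested and 0.08 over chromosome 6. The 14 regions summed to 293 ± 24.5 CPM in EV and 273 ± 26.2 CPM in OE (SD, n = 3 each), a log2 difference of -0.10 (exact permutation p = 0.5, adjusted p = 0.75). The direction turned within 100 kb, where the sum over 5 regions was 0.25 higher in OE on the log2 scale, with overlap (exact permutation p = 0.6, not adjusted). EV library 1 had the lowest of these sums, at 13.8 CPM. EV libraries 2 and 3 had 23.6 and 23.1 CPM, and OE had 23.0 to 23.7 CPM. The region nearest to the interval, at chr6:49050803-49051026, showed 1 low library. Its level was 1.32 CPM in EV library 1, against 6.56 and 6.46 CPM in EV libraries 2 and 3 and 5.62 to 8.22 CPM in OE. EV library 1 was also the lowest EV library at all the *Gpnmb* regions, where OE library 1 was likewise the lowest OE library.

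Regions further out were counted in a window chosen after seeing the data. Between 200 kb and 1 Mb from the interval, 2 of 33 regions were called in Scr against EV, again beside 4.38% of all regions. There 13 had an unadjusted edgeR p under 0.05, and 19 of 33 had a log2 fold change below 0. One, at chr6:48575472-48575990, lies 436 kb before the interval and fell by 0.76 ± 0.21 (SE, edgeR FDR 0.0435) on the log2 scale, from 5.32 ± 0.716 CPM in EV to 3.09 ± 0.299 CPM in Scr (SD, n = 3 each). The other, at chr6:49237856-49238159, lies 201 kb after it and rose by 0.84 ± 0.21 (SE, edgeR FDR 0.0329), from 31.0 ± 7.07 to 55.1 ± 22.8 CPM. Of these, the region before the interval moved in the direction of *Gpnmb* from EV to Scr, and its size was well short of the -3.52 to -4.07 there. Its mean was 4.57 ± 0.741 CPM in OE, 4.61 ± 0.368 CPM in KD4 and 3.62 ± 0.853 CPM in KD6 (SD). It thus did not split the 5 lines as *Gpnmb* did. The other 5 comparisons had 0 called of 33 regions, or of 28 for OE against EV, with 1 to 7 regions at an unadjusted edgeR p under 0.05. In these comparisons edgeR called 0.0106% to 0.576% of all regions.

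**Figure D4:**
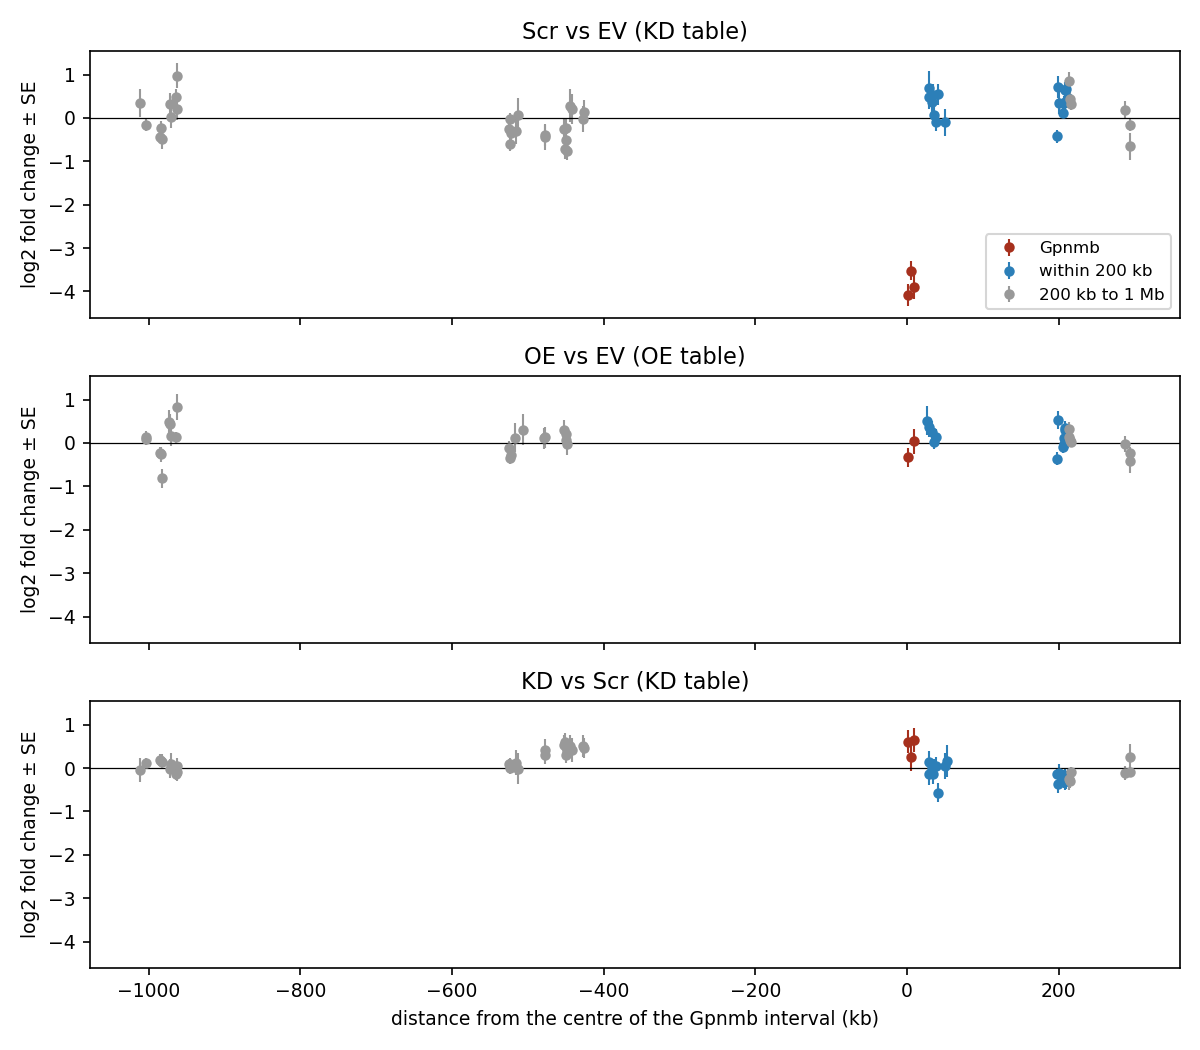
Log2 fold change ± SE from the edgeR fits (y axis) of each region within 1 Mb, against its distance in kb from the centre of the *Gpnmb* interval (x axis), for Scr against EV, OE against EV and both knockdown lines together against Scr. In the first panel the *Gpnmb* regions stand at -3.52 to -4.07 while the neighbours within 200 kb run from -0.42 to 0.70.

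The regions whose pattern was most like that of *Gpnmb* were named by Pearson's r, over the 15 libraries, between their log2 CPM and the log2 of the summed *Gpnmb* level. Candidates were 23814 regions of the KD table with a mean of at least 5 CPM, outside the 200 kb window. The closest, at chr10:75773172-75773536, had r = 0.971. It had 41.4 ± 1.55 CPM in EV and 38.6 ± 6.55 CPM in OE, against 12.985 ± 1.19 CPM in Scr, 14.1 ± 2.09 CPM in KD4 and 16.5 ± 2.26 CPM in KD6 (SD, n = 3 each). The order of the 5 lines was that of *Gpnmb*, on a narrower range. The next were chr8:123305154-123305866 (r = 0.936), chr11:76112058-76112781 (r = 0.930), chr4:120386446-120386819 (r = 0.927) and chr4:122234843-122235493 (r = 0.924). The last of these had 32.3 ± 0.808 CPM in EV and 13.3 ± 1.81 CPM in Scr, with KD6 between them at 21.9 ± 0.781 CPM. In all, 19 candidates had r over 0.9 and 15 had r under -0.9, and the median r was 0.15. For deviations from the line means, r of the 5 regions fell to between 0.0726 and 0.709. The points share their libraries and fall in the same 2 clusters of lines, so these values are a description.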

How the data were processed

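ATAC-seq reads of 15 6DT1 libraries were processed by the authors in Partek Flow. Per the study's methods, reads were aligned to mm39 with Bowtie2 and peaks were called with MACS. The submitters' processing notes name STAR 2.7.8a. A shift of reads for the transposase and the counting of reads per region are not described in what was read. The 2 deposited tables hold estimated counts per region, of which 95.1% (KD table) and 95.0% (OE table) were whole numbers, and none was 0. They were rounded to whole counts. A further 15 columns in each table matched none of these libraries and were left out.

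Levels are CPM with TMM factors over all 15 libraries of a table. Each comparison was fitted with the quasi-likelihood test of edgeR 4.0.16 (R 4.3.3) on the lines compared (Scr, KD4 and KD6 together), after edgeR's filter on low counts, with Benjamini-Hochberg adjustment over all regions of the table and an FDR of 0.05. DESeq2 1.42.0 was an alternative. For sums over neighbours the test was a two-sided exact permutation test (1 value per library, 6 comparisons). The fits were tested on simulated data. No 2 libraries of the same line were alike within sampling noise (over 30 pairs, the variance between replicates was at least 3.75 times that of counting).

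The locus, the lists and the tests were chosen with earlier results of these data known. Named regions were all *Gpnmb* regions, the neighbours past an FDR of 0.05 and the 5 regions most like *Gpnmb* by Pearson's r (prior count 1). Other neighbours named for their level, position or smallest adjusted p were chosen after their values were seen. Lists of pathway genes and cell type markers, and sums per gene, were planned but not run, because no annotation of mm39 was used here.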

Additional observations from a re-analysis of the deposited data

How the results depend on the processing

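The neighbour calls were recomputed under other scalings, filters, tools, windows and sets of libraries. Outside Scr against EV, all 92 alternatives gave 0 called neighbours. Leaving out each library thus gave 0 to 0 in KD against Scr, KD4 against Scr, KD6 against Scr, KD6 against KD4 and OE against EV. The main fits of these comparisons called only 0.0106% to 0.576% of all regions, so 0 calls say little about the neighbours. In Scr against EV, 11 of 16 alternatives gave 0. Upper quartile scaling gave 1 called neighbour, the regions of the other table gave 1, and leaving out each library gave 0 to 2 (2 without EV library 3, 1 without Scr library 2), each higher in Scr. The cause was not tested. Whether the replicate numbers pair the libraries was not settled, and the main fits did not use them. Correlations of deviations between same-numbered libraries ran from -0.195 to 0.297. In OE against EV they ran from -0.027 to 0.297, against -0.333 to 0.097 for libraries of unlike number. In KD against Scr the ranges were -0.195 to 0.238 and -0.382 to 0.332. The replicate block gave 1 called neighbour in Scr against EV and 0 in the other 5 comparisons.

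The summed *Gpnmb* level (log2 ratio of means) moved by less than the larger SD of the 2 groups with all libraries kept, under every alternative. Without KD4 library 2 it moved by more than the SD of the libraries that were left, to -0.18 in KD4 against Scr and to 1.05 in KD6 against KD4. Leaving out each library gave 0.40 to 0.78 in KD against Scr, -0.18 to 0.43 in KD4 against Scr, 0.69 to 1.07 in KD6 against Scr, 0.45 to 1.05 in KD6 against KD4, -0.55 to -0.10 in OE against EV and -4.20 to -3.80 in Scr against EV. Exact permutation tests of the neighbour sums over the other table or within 100 kb, added after seeing the data, gave p from 0.1 to 1. The sum within 100 kb turned from -0.0022 to 0.20 in Scr against EV, from -0.10 to 0.25 in OE against EV and from 0.00012 to -0.032 in KD6 against KD4. In Scr against EV and in OE against EV, EV library 1 had the lowest sum within 100 kb. With 3 libraries against 3, no such p can be under 0.1, and 15 to 42 reads per library at the second *Gpnmb* region limit comparisons among Scr, KD4 and KD6.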
